A study of Ovis aries with 23 samples.

Results

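Infarcted muscle of adolescent sheep hearts was compared with muscle of adolescent hearts after sham surgery. The comparison holds 5 of the 23 arrays of the series, chosen by their titles and not by any measured value: adolescent infarct 1, 2 and 3, and adolescent sham 2 and 3. All 5 came from the ventricle of sheep (Ovis aries) at 6 months of age. In the infarct group the second diagonal branch of the left anterior descending artery had been tied off, and tissue of the infarct itself was taken 3 days later. The sham group is described only as having had sham surgery, and the time from surgery to sampling is not stated for it. No strain, genotype or drug is named for either group, and the 23 arrays hold no adolescent sham 1. Nothing says whether the arrays of a group came from separate animals, and the p-values may therefore rest on technical rather than animal-to-animal spread.

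When a coronary branch is closed, the heart muscle cells it supplies die, and neutrophils and then monocytes and macrophages enter to clear them. Fibroblasts multiply in the same area and lay down collagen, which becomes the scar. Healthy ventricular muscle contracts through myosin and tropomyosin and lives mainly on fatty acids burned in its mitochondria, with glucose as a second fuel. In bulk tissue, fewer cells of a type and less RNA per cell cannot be told apart, and this holds for every gene below.

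Levels are log2 signals minus the 75th percentile of the signal on the same array, so a level of 0 is the signal of that percentile. They compare arrays for 1 gene and not genes with each other, since probes differ in brightness. A difference is always infarct minus sham on this log2 scale, with its standard error (SE) and an adjusted p from limma, and a gene passed the test where the adjusted p was below 0.05. Values are given for infarct 1, 2 and 3 in that order, and then for sham 2 and 3.

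The sham arrays were dim. The 75th percentile of the signal was 751, 864 and 1334 intensity units on the infarct arrays against 243 and 128 on the sham arrays. By the scanner software's own test, 78.3% to 79.2% of probes were well above background on the infarct arrays, against 69.2% on sham 2 and 61.0% on sham 3. The groups did not overlap in brightness, and the scaling removes only the overall difference between arrays. Each result was therefore also computed with the brightness of the array as a term in the fit, an alternative chosen after seeing the data. It was also computed with the normexp background correction in place of the software's own, with an offset of 50 intensity units added to every signal. The median signal was 42.9 and 24.2 units on the sham arrays and 146, 175 and 221 on the infarct arrays. The offset therefore weighs more on the shams, and its part in the normexp results was not tested. Infarct 2 and sham 2 shared a slide, as did infarct 3 and sham 3, but each group had its own positions on the slide, and the effects of position cannot be told apart from those of group.

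**Figure D1:**
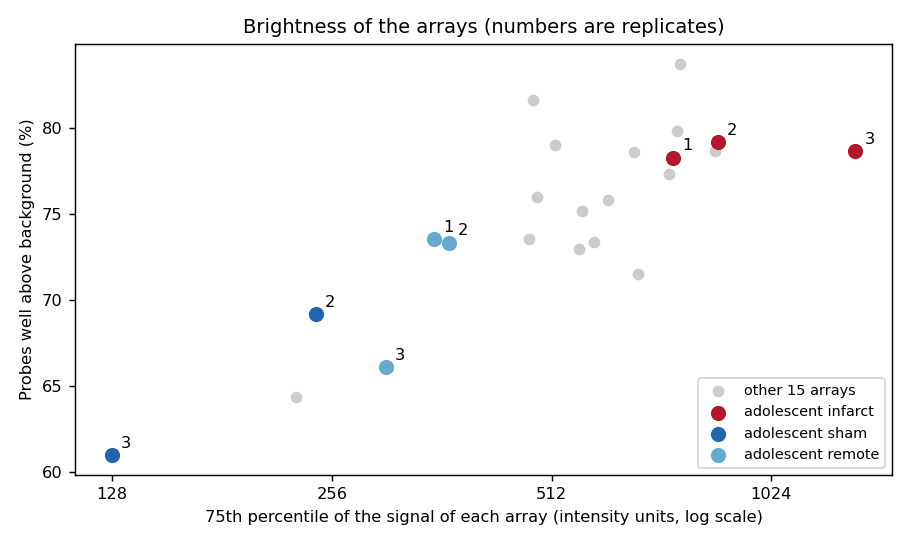
Brightness of the 23 arrays, as the 75th percentile of the signal in intensity units (log axis) against the percentage of probes well above background. The 3 adolescent infarct arrays (751 to 1334 units) lie to the right of both adolescent sham arrays (128 and 243 units), with the 3 adolescent remote arrays between them.

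Over the whole array, 7181 of 12451 tested probes (57.7%) passed the test, 3195 of them higher in the infarct (25.7% of those tested) and 3986 lower (32.0%). On 30.8% of probes all infarct arrays lay above both sham arrays, and on 39.1% all lay below. A name could be given to 879 tested genes, of which 512 passed (58.2%), 259 higher (29.5%) and 253 lower (28.8%). The counts of list members below are to be read against these shares. At least a 2-fold difference was called for 222 of the higher and 210 of the lower genes. Within slide 2 and within slide 3 the infarct array differed from its sham array in the called direction for 507 of the 512 in both slides. The same arrays made the calls, so this agreement was largely set by the selection and is no separate support. Of the 259 higher genes, 41 were not well above background on either sham array. Where a fold is written "at least", each sham signal is taken as no lower than the lowest signal well above background on its array. Signals above that limit can still fail the scanner software's test. Such a fold therefore holds for this limit only and is no strict minimum, and with normexp several of these differences changed sign. Of the 253 lower genes, 21 were not well above background on any of the 5 arrays.

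The balance of higher and lower calls depended on the scaling. Of all called probes 44.5% were higher in the infarct, against 19.7% with normexp, 35.4% with no filter on dim probes, 49.3% with quantile normalization and 51.4% in the authors' deposited values. The median difference over all tested probes was -0.19, and it was -1.06 with normexp, -0.51 with no filter and 0.02 in the deposited values. Of the 512 named genes past the test, 346 passed in the same direction with normexp and 105 with brightness in the fit. In the other direction, 5 passed with normexp and 0 with brightness.

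The genes of the working heart muscle were lower in the infarct by wide margins. All 3 measured contractile genes fell, with a median difference of -6.75 (-4.83 within slide 2 and -6.76 within slide 3). MYH7, the slow beta myosin heavy chain of the ventricle, lay at -3.77, -0.53 and -4.09 on the infarct arrays and at 5.74 and 5.07 on the sham arrays. The infarct arrays were all far below the sham arrays, and infarct 2 was the highest of them. MYH7 fell by 8.20 (SE 0.73, adjusted p = 1.15e-07), a 294-fold difference and the lowest of all named genes. MB, myoglobin, which stores oxygen in muscle, was at 0.22, 4.01 and 2.15 against 8.84 and 8.91. Here too no array of one group reached the other, and infarct 2 was again nearest to the shams. The difference in MB was -6.75 (SE 0.67, adjusted p = 3.15e-07). TPM1, the tropomyosin that regulates the thin filament, was at 3.84, 5.65 and 4.37 against 9.19 and 9.24, a difference of -4.59 (SE 0.36, adjusted p = 4.97e-08). Both sham arrays thus carried defining markers of the labelled tissue, heart muscle, far above the 75th percentile. The natriuretic peptide genes NPPA and NPPB, MYH6 and ATP2A2 carried no name on the array and were not analysed here.

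Genes of conduction and ion transport were lower as well. GJA1, the gap junction protein connexin 43, was at -0.29, 0.18 and -1.17 on the infarct arrays against 2.03 and 2.31, and it fell by 2.60 (SE 0.34, adjusted p = 6.36e-06). All 4 probes of GJA1 passed in this direction. ATP1B1, the beta subunit of the sodium pump, fell by 2.87 (SE 0.28, adjusted p = 2.98e-07). CRYAB, a small heat shock protein abundant in muscle, was at 4.58, 6.00 and 4.49 against 8.46 and 8.77. It fell by 3.59 (SE 0.40, adjusted p = 1.48e-06), while HSP90AA1, a general chaperone, rose by 1.02 (SE 0.37, adjusted p = 0.0272). HSP90AA1 lost its call when any 1 array other than infarct 1 was left out, with adjusted p between 0.0567 and 0.0950.

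Most mitochondrial energy genes were lower in the infarct. Of 9 measured genes of oxidative phosphorylation and the citrate cycle, 7 fell and none rose, with a median of -2.66 (-2.32 and -2.80 within the slides). SLC25A4, which exchanges ATP and ADP across the inner membrane, was at 3.43, 5.26 and 3.98 against 9.01 and 9.20. The groups were far apart, and the difference was -4.88 (SE 0.37, adjusted p = 4.04e-08). Of the ATP synthase, ATP5MC1, ATP5MC2 and ATP5PO, fell by 2.95, 2.66 and 3.02. ATP5MC1 was nearly the same on the 3 infarct arrays, at 5.97, 6.04 and 5.90 against 8.70 and 9.15, so its infarct arrays lay within 0.14 of each other where those of MYH7 spread over several log2 units. COX5A, a subunit of the respiratory chain, fell by 3.10 and NDUFA2, of complex I, by 2.09. SOD2, which removes superoxide in the mitochondrion, fell by 2.97 (SE 0.41, adjusted p = 1.02e-05) from 3.57 and 3.69 in the shams to 0.39, 0.69 and 0.89.

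Genes of fatty acid use moved in both directions. PPARGC1A, the coactivator that drives mitochondrial growth, was at -7.94, -5.15 and -6.52 against 0.03 and -0.75. It fell by 6.17 (SE 0.74, adjusted p = 2.35e-06) and was well above background on only 1 infarct array, and with the dim arrays raised to their limit the difference was -5.61. CPT1B, the muscle enzyme that admits fatty acids to the mitochondrion, fell by 5.48 (SE 0.42, adjusted p = 4.25e-08), from 3.47 and 2.98 to -2.76, -1.43 and -2.56. PPARA, the nuclear receptor of fatty acid oxidation, fell by 2.96, LPL, which frees fatty acids from blood lipids, by 3.03, and the carnitine carrier SLC25A20 by 0.98. PLIN5, the lipid droplet protein of oxidative tissue, fell by 6.59 (SE 0.73, adjusted p = 9.62e-07). PPARG, the receptor of fat storage, moved the other way, at 2.19, 1.80 and 1.70 against -0.70 and -0.67, a rise of 2.58 (SE 0.59, adjusted p = 0.00134). PLIN2, a lipid droplet protein of many cell types including macrophages, rose by 2.95 (SE 0.46, adjusted p = 3.83e-05). In all, 3 of the 10 measured fatty acid genes rose and 5 fell, with a list median of -0.12 (-2.11 with normexp). That is 80.0% called, against 58.2% of all named genes. Besides PPARG, the members that rose were CPT1A, the liver form of the carnitine enzyme, by 2.33 (SE 0.76, adjusted p = 0.0143) and FABP5, a fatty acid carrier, by 1.57 (SE 0.62, adjusted p = 0.0387), both named after their values were seen. Without infarct 2 or without sham 3 the higher calls fell from 3 to 1.

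Glucose genes also moved in both directions, with 6 of 19 higher and 10 lower and a median of -1.62 (-0.71 and -1.46 within the slides). The called share was 84.2%, against 58.2% of all named genes. Without sham 2 the higher calls became 3. SLC2A4, the insulin-responsive glucose transporter GLUT4, was at -3.60, -0.21 and -2.26 against 4.73 and 5.08. All infarct arrays were below both shams, infarct 2 least so, and the difference was -6.93 (SE 0.76, adjusted p = 9e-07). The muscle forms of the glycolytic and glycogen enzymes fell: ENO3, the muscle enolase, by 6.77, PFKM, the muscle phosphofructokinase, by 5.25 and PYGM, the muscle glycogen phosphorylase, by 5.04. Their adjusted p-values were 8.11e-08, 1.06e-07 and 4.69e-08. ALDOA, the aldolase of muscle and most other tissue, fell by 2.56, and GAPDH, often used as a reference gene, by 1.62. GAPDH did not pass with the deposited values, where it was at -0.35, or with normexp, at -0.82. LDHA, which makes lactate, rose instead, at 4.11, 3.96 and 4.60 against 0.98 and 0.65, a difference of 3.41 (SE 0.40, adjusted p = 1.84e-06). SLC2A1, the widespread glucose transporter GLUT1, rose by 1.86 (SE 0.71, adjusted p = 0.0319), but its call was lost without any 1 of the 5 arrays, and with normexp it was at -0.82. SLC2A5, the fructose transporter, was at -0.61, 1.94 and 3.43 against -4.67 and -3.68, a 54.1-fold rise (adjusted p = 0.000246). Neither sham array was well above background for SLC2A5, so the size of its rise is not exact. Both sham levels lay above the limits used for "at least" (-4.90 and -3.71), which therefore set no bound here. PRKAA2, the muscle form of the energy sensor AMPK, fell by 7.44 (SE 0.67, adjusted p = 1.28e-07), from 1.28 and 1.18 to -7.05, -4.37 and -7.20. On infarct 1 and 3 PRKAA2 lay below the lowest signal well above background (-6.23 and -6.77), so the size of its fall is not exact.

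**Figure D2:**
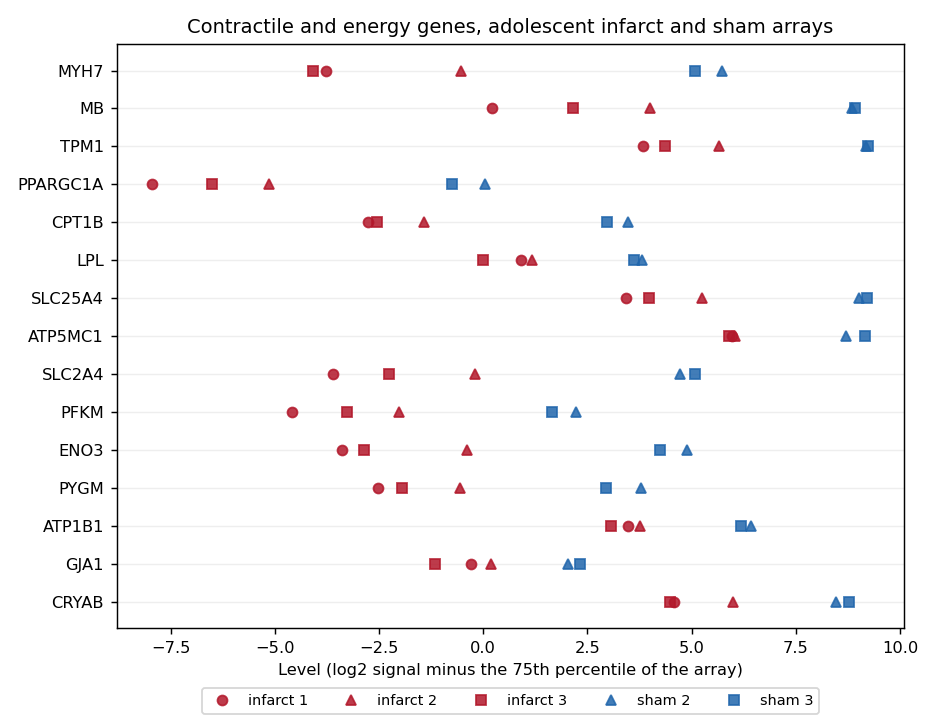
Level of 15 contractile and energy genes on each of the 5 arrays (log2 signal minus the 75th percentile of the array). Every infarct array (red) lies below both sham arrays (blue) for all 15 genes, and infarct 2 (red triangle) is the highest infarct array for each of them.

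The infarct arrays did not lie equally far from the shams. In all 12 of the lowest named genes infarct 2 was the highest infarct array, and among all 252 called lower genes with a value on every infarct array it was the highest in 133. FBXO32, a ubiquitin ligase of muscle wasting, shows the same order, at -2.34, -1.34 and -2.35 against 3.43 and 2.72. Infarct 2 was also the highest in 12 of the 14 measured extracellular matrix genes and the lowest in 9 of the 12 macrophage and monocyte markers. Over all 877 named genes with a value on every infarct array, it was the highest in 287 and the lowest in 257. Without infarct 2, the number of lower calls stayed the same in the contractile, ion transport, mitochondrial, fatty acid and glucose lists. The higher calls fell from 3 to 1 among the fatty acid genes and from 6 to 4 among the glucose genes, where SLC2A1 lost its call. With brightness in the fit, all 3 contractile genes, 5 of the 9 mitochondrial genes, 3 of the 10 fatty acid genes and 7 of the 19 glucose genes were still called lower, and 1 glucose gene, LDHA, higher.

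Inflammatory messengers were among the highest genes of the comparison. Of 17 measured cytokines and chemokines 10 rose and 2 fell, with a median of 1.88 (2.11 and 1.94 within the slides). CXCL8, the chemokine that attracts neutrophils, was at 1.69, 2.76 and 0.90 on the infarct arrays against -4.56 and -5.59 on the sham arrays. All infarct arrays lay above both shams, and the difference was 6.86 (SE 1.04, adjusted p = 2.76e-05). Sham 3 was not well above background for CXCL8, and with the dim array raised to its limit the difference was 5.92. IL6, which drives the acute phase response, was at 0.74, -0.08 and 0.15 against -6.54 and -5.66. Neither sham array was well above background for IL6, so its rise was at least 23.9-fold (adjusted p = 9.12e-05). The interleukin-1 genes rose: IL1B was at least 5.64-fold and IL1A at least 4.87-fold higher, with adjusted p-values of 0.00025 and 4.33e-05. IL10, which restrains macrophages, rose by 3.85 (SE 0.56, adjusted p = 1.88e-05), to -0.13, -1.03 and -0.10 from -4.46 and -4.09. TNF, at 0.64, -0.05 and -0.18 against -2.16 and -1.34, rose by 1.88 (SE 0.55, adjusted p = 0.00713) and lost its call without sham 2 (adjusted p = 0.0882). MIF, a cytokine made by many cells, rose by 1.88 (SE 0.31, adjusted p = 6.13e-05). The 2 that fell, named here after their values were seen, were CXCL10, a chemokine for T cells induced by interferon, by 2.80 (SE 0.93, adjusted p = 0.0154) and CXCL1, a neutrophil chemokine, by 1.28 (SE 0.33, adjusted p = 0.00289). In the deposited values CXCL1 was at 0.07.

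Markers of macrophages and monocytes had a median of 3.55 (3.31 and 3.54 within the slides), and 10 of 12 rose and 2 fell. Without sham 3, 9 were higher and 0 lower. SLC11A1, a metal transporter of the macrophage phagosome, was at 3.72, 2.08 and 3.28 against -3.52 and -2.13. All infarct arrays were well above both shams, and the difference was 5.85 (SE 1.24, adjusted p = 0.000645). PLAUR, the urokinase receptor on monocytes, rose by 5.84 (SE 0.85, adjusted p = 1.81e-05). CD14, the co-receptor for bacterial lipopolysaccharide, was at 1.58, 0.68 and 1.46 against -2.62 and -2.16, a rise of 3.63 (SE 0.56, adjusted p = 3.24e-05). FCER1G, the signalling chain of Fc receptors, rose by 3.58, and LGMN, a lysosomal protease, by 3.68. Lysozyme, which cleaves bacterial walls, was high on its probes: LYZ rose by 4.37, and the sheep lysozyme 2a gene LOC443321 had the highest difference of all named genes. LOC443321 was at 5.30, 3.68 and 4.37 against -3.56 and -1.46, a difference of 6.96 (SE 1.34, adjusted p = 0.000281). The lysozyme genes are near-identical copies, so their probes may read each other's transcripts. The 2 markers that fell, named after their values were seen, were TYROBP, the adaptor that carries the signal of several myeloid receptors, by 1.13 and CD80, a costimulatory ligand, by 1.37. CD80 was not well above background on either sham array.

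Neutrophil markers were measured less well. Of 7, 3 rose and none fell, and 2 were not well above background on any of the 5 arrays, so the median of 2.21 became 0.09 with every dim array at its limit. ITGB2, the integrin chain of all leukocytes, was at 4.12, 3.23 and 3.87 against -0.40 and -0.27, a rise of 4.07 (SE 0.79, adjusted p = 0.00031). CYBA, a subunit of the oxidase that makes the respiratory burst, rose by 3.33 (SE 0.45, adjusted p = 8.34e-06), and its partner CYBB was at least 4.61-fold higher (adjusted p = 0.00456). CYBB lost its call without sham 2 (adjusted p = 0.0978).

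Genes of the acute phase and innate sensing rose in 10 of 16 measured cases and fell in none, with a median of 1.68 (1.56 and 1.73 within the slides). TLR2, the receptor for bacterial lipoproteins, was at 0.98, 0.35 and 0.56 against -4.83 and -5.26 and at least 29.9-fold higher (adjusted p = 2.19e-05). TLR4, the receptor for lipopolysaccharide, rose by 1.96 (SE 0.51, adjusted p = 0.00332) and TLR6 by 1.54 (SE 0.37, adjusted p = 0.00197). CLEC6A, a C-type lectin of myeloid cells that senses fungi, rose by 5.08 (SE 1.05, adjusted p = 0.000515). PTX3, a secreted pentraxin, was at least 4.82-fold higher and NOD2, a cytosolic sensor of bacterial wall, at least 3.98-fold. NOS2, the inducible nitric oxide synthase, rose by 2.55 (SE 0.53, adjusted p = 0.000548). PTGS2, the inducible cyclooxygenase, was at -0.89, -1.31 and -0.77 against -3.09 and -2.24 on its brighter probe, a rise of 1.67 (SE 0.48, adjusted p = 0.00663), while its other probe passed in the other direction.

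Several of these inflammation calls changed with normexp, which here includes the offset of 50 units. With normexp the difference turned to -0.50 for IL1B, -0.59 for IL1A, -0.73 for CYBB, -0.54 for PTX3, -0.68 for NOD2, -0.69 for NOS2, -0.51 for TLR4, -0.49 for TLR6 and -0.20 for PTGS2. The called counts were then 3 higher and 6 lower among the cytokines, and 2 higher and 3 lower among the acute phase and innate sensing genes (median -0.52). They were 2 higher and 3 lower among the neutrophil markers (median -1.89), and 7 higher and 2 lower among the macrophage markers. With brightness in the fit 2 cytokines, 1 acute phase or innate sensing gene and 0 of the macrophage and neutrophil markers remained past the test. The list medians were then 1.73, 0.7, 1.68 and 1.05, in that order.

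Receptors for cytokines rose in 3 of 7 measured cases, with a median of 0.52 (1.03 within slide 2 and -0.19 within slide 3), and with normexp 2 were higher and 2 lower (median -0.69). CXCR4, the receptor that draws leukocytes along CXCL12, was at least 5.25-fold higher (adjusted p = 1.57e-06), and with normexp it was at -0.69. IFNAR1 and IFNAR2, the chains of the receptor for type I interferon, rose by 1.64 (SE 0.22) and 2.16 (SE 0.35). Of 7 measured interferon response genes 0 passed the test in limma, 1 (IRF1) had an unadjusted p below 0.05, and the median was -0.18 (-0.21 and -0.12 within the slides). With the slide as a block, 1 of the 7 was called lower. IRF1, an early target, was at -2.65, -2.79 and -3.48 against -2.54 and -1.70, with a difference of -0.85 (SE 0.40, adjusted p = 0.0790). IRF1 passed as lower with the deposited values, quantile normalization and normexp, and without sham 2.

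Antigen presentation genes rose in 3 of 4 cases. CTSS, the protease that prepares the class II groove, was at 4.50, 4.88 and 5.24 against 0.29 and 1.83, a rise of 3.81 (SE 0.66, adjusted p = 0.000103). CD1D, which presents lipids, rose by 1.93 and PSMB8, of the immunoproteasome, by 1.26. PSMB8 lost its call without sham 2 (adjusted p = 0.0945). Complement and clotting genes were mixed, with 2 of 5 higher and 1 lower. C5AR1, the receptor for the complement fragment C5a on phagocytes, was at 3.60, 2.88 and 3.44 against -1.06 and -0.52, a rise of 4.10 (SE 0.72, adjusted p = 0.000112).

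Of 6 measured T and NK cell markers none rose and 3 fell, with a median of -0.96 (-0.93 and -1.41 within the slides). CD3E, a chain of the T cell receptor complex, was at -0.26, -0.52 and 0.14 on the infarct arrays against 0.93 and 1.48 on the shams. No infarct array reached a sham array, and CD3E fell by 1.42 (SE 0.33, adjusted p = 0.00142). CD3D, of the same complex, fell by 1.43 (SE 0.35, adjusted p = 0.0021) and the kinase LCK by 1.25 (SE 0.39, adjusted p = 0.0114). Without sham 3, the dimmer sham array, CD3D was at -0.87 (adjusted p = 0.0809) and LCK at -0.44 (adjusted p = 0.376). The summed level of the 6 markers, as a ratio to the 75th percentile, ranged from 1.20 to 1.82 on the infarct arrays and from 2.71 to 4.57 on the shams. That of the 12 macrophage markers ranged from 107 to 167 and from 11.2 to 11.5. Each sum follows its brightest probes, so it compares arrays for 1 list and gives no ratio between lists or cell types. None of the T and NK markers was called with brightness in the fit, where their median was -0.10.

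Matrix genes were higher in the infarct, with 9 of 14 measured genes up and 0 down and a median of 2.00 (2.37 and 1.16 within the slides). COL1A1, a chain of the main scar collagen, was at 1.85, 1.88 and 0.31 against -1.56 and -1.50. Infarct 3 was the lowest infarct array and still above both shams, and the difference was 2.87 (SE 0.55, adjusted p = 0.000281). COL1A2, the other chain of that collagen, at 2.28, 3.24 and 0.69 against -1.26 and -0.95, and COL3A1, of early scar, at 3.65, 4.76 and 2.58 against 0.26 and 0.84, had the same order of arrays. They rose by 3.17 (SE 0.71) and 3.11 (SE 0.74), with adjusted p-values of 0.00108 and 0.00163. Infarct 3 was the lowest infarct array in 11 of the 14 matrix genes, and in 411 of all 877 named genes with a value on every infarct array. COL12A1, which coats collagen fibrils, had the highest difference of the list, 4.52 (SE 0.46, adjusted p = 3.92e-07), from -1.03 and -2.67 to 2.57, 2.85 and 2.59. COL5A2 rose by 3.86, BGN, the proteoglycan biglycan, by 2.94 and CCN2, connective tissue growth factor, by 3.92. The basement membrane collagens COL4A1 and COL4A2, named after their values were seen, had differences of 0.83 and 0.56 and did not pass, with adjusted p-values of 0.233 and 0.237.

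All 7 measured fibroblast and myofibroblast markers rose, 4 of them matrix genes named above or decorin, with a median of 2.87 (3.44 and 1.63 within the slides). S100A4, a calcium-binding protein of fibroblasts and of monocytes, was at 7.08, 6.25 and 6.45 against 1.23 and 2.17. The groups were far apart, and S100A4 rose by 4.90 (SE 0.93, adjusted p = 0.000241). VIM, the intermediate filament of mesenchymal cells, rose by 1.84 (SE 0.33, adjusted p = 0.000144). CNN1 and MYLK, a contractile regulator and the myosin light chain kinase of smooth muscle, were the 2 smooth muscle markers measured and rose by 2.27 and 1.84, both named after their values were seen. Only 1 of these 2 was called without infarct 2 or without sham 2. ACTA2, FN1 and SPARC carried no name on the array and were not analysed here.

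The enzymes that remodel matrix rose in 10 of 14 cases and fell in none, with a median of 2.33 (2.82 and 2.12 within the slides). TIMP1, an inhibitor of metalloproteinases, was at 8.96, 8.74 and 8.12 against 4.67 and 3.94. It rose by 4.30 (SE 0.72, adjusted p = 7.53e-05). CTSB, a lysosomal cathepsin, was at 4.70, 4.97 and 4.50 against -0.22 and 0.05, a rise of 4.81 (SE 0.57, adjusted p = 2.12e-06). PLAU, the urokinase that activates plasmin, rose by 3.55 (SE 0.33, adjusted p = 1.55e-07). The gelatinase MMP2 rose by 1.93 (SE 0.28) and the membrane protease MMP14 by 2.45 (SE 0.35). MMP9, the gelatinase of neutrophils, was at -3.03, -3.76 and -5.86 against -6.98 and -5.87 and not well above background on either sham array. Its adjusted p was 0.119, and it passed with quantile normalization (3.51) and without infarct 3 (3.03, adjusted p = 0.0496). With normexp 8 matrix genes, all 7 fibroblast markers and 7 proteases and inhibitors were higher, 1 matrix gene and 3 proteases and inhibitors were lower, and the protease median was 0.55. Higher calls with brightness in the fit numbered 4, 1 and 3, with medians of 2.40 for matrix, 3.43 for fibroblast markers and 1.75 for proteases. The matrix and fibroblast medians were thus no smaller than in the main fit, although fewer genes passed.

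The transforming growth factor beta (TGF-beta) and bone morphogenetic protein (BMP) family was split, with 5 of 24 measured members higher and 12 lower. The median was -0.48, at -0.07 within slide 2 and -1.41 within slide 3. The 12 lower calls became 6 without infarct 3, 4 without sham 3, 6 with only the 5 arrays in the fit and 7 with array weights. INHBA, which forms activin A, was at 1.30, 1.27 and 1.04 against -2.89 and -1.64, a rise of 3.47 (SE 0.54, adjusted p = 3.71e-05). TGFB1, the main fibrosis ligand of the family, rose by 1.52 (SE 0.31, adjusted p = 0.000492), from -0.93 and -1.23 to 0.73, 0.10 and 0.48. BMP7 and BMP6, ligands of the BMP branch, fell. BMP7 was at -4.48, -2.60 and -5.56 against 0.96 and 0.38, a difference of -4.89 (SE 0.57, adjusted p = 1.8e-06). BMP6 fell by 2.05 (SE 0.37) and INHA, the inhibin subunit, by 3.09 (SE 0.45). SMAD4, the shared partner of all receptor-activated SMAD proteins, fell by 2.40 (SE 0.35, adjusted p = 1.68e-05) on its brighter probe, and its other probe did not pass. With normexp 3 members were higher and 15 lower, and with brightness in the fit 1 (INHBA) and 1 (BMP7).

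Adhesion genes rose in 8 of 13 cases and fell in 1, with a median of 1.41 (1.38 and 1.34 within the slides). ITGAV, the integrin chain that binds vitronectin, was at 0.01, 0.60 and 0.80 against -1.37 and -2.11, a rise of 2.21 (SE 0.37, adjusted p = 8.06e-05). ITGB1, the shared beta chain, rose by 0.99 (SE 0.24). ITGB6, an epithelial integrin chain, was the 1 that fell, at -4.62, -2.89 and -4.90 against 0.21 and 0.60, by 4.54 (SE 0.63, adjusted p = 1.12e-05). ICAM1, the endothelial ligand of leukocyte integrins, rose by 2.19 (SE 0.44, adjusted p = 0.000445), and with normexp it was at -0.07. With normexp 5 of the 13 adhesion genes were higher and 4 lower (median -0.29). None passed with brightness in the fit, by limma, and their median was then 0.95.

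Proliferation genes rose together. Of 12 measured cell cycle genes 10 rose and 1 fell, with a median of 2.38 (2.15 and 2.70 within the slides). CCNA2, cyclin A of the S and G2 phases, was at -0.22, 0.06 and 0.35 on the infarct arrays against -6.42 and -5.83. Neither sham array was well above background for CCNA2, and the rise was at least 20.7-fold (adjusted p = 3.51e-08). TYMS, which makes thymidylate for DNA synthesis, was at 0.16, 0.26 and 0.35 against -5.47 and -5.95 and at least 23.7-fold higher (adjusted p = 2.46e-08). The mitotic pair CDK1 and CCNB1 rose by 4.45 (SE 0.40) and 5.01 (SE 0.41). CDK1 lay between 0.38 and 0.69 on the infarct arrays, so these proliferation genes varied little among the 3 infarcts. PCNA, the clamp of the replication fork, was at 1.75, 2.14 and 2.2 against -0.54 and -0.51, a rise of 2.55 (SE 0.30, adjusted p = 1.74e-06). ASPM, a spindle protein, was at least 9.83-fold higher (adjusted p = 3.29e-06), and with normexp it was at 0.04. CCND2, a D cyclin named after its value was seen, was the 1 that fell, by 1.57 (SE 0.30, adjusted p = 0.000236). With normexp 8 were called higher, and with brightness in the fit CCNA2 (4.27), TYMS (4.47), CDK1 (3.39) and CCNB1 (3.71) were.

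Regulators of cell death rose on both sides of the decision. Of 9 measured genes 5 rose and 1 fell, with a median of 0.94 (1.16 and 0.91 within the slides). BCL2, which protects cells, was at 2.45, 2.64 and 2.96 against -0.06 and -0.02, a rise of 2.73 (SE 0.40, adjusted p = 1.84e-05). BAX, which opens the mitochondrial membrane, rose by 2.33 (SE 0.34, adjusted p = 1.84e-05), to -0.19, 0.11 and -0.04 from -2.71 and -2.03. BCL2L1, a protective relative of BCL2, fell by 0.86 (SE 0.27, adjusted p = 0.0106) and did not pass without sham 3 (adjusted p = 0.0897). With normexp 4 of the 9 were higher and 3 lower. None passed with brightness in the fit, by limma, and the median was then 0.67.

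**Figure D3:**
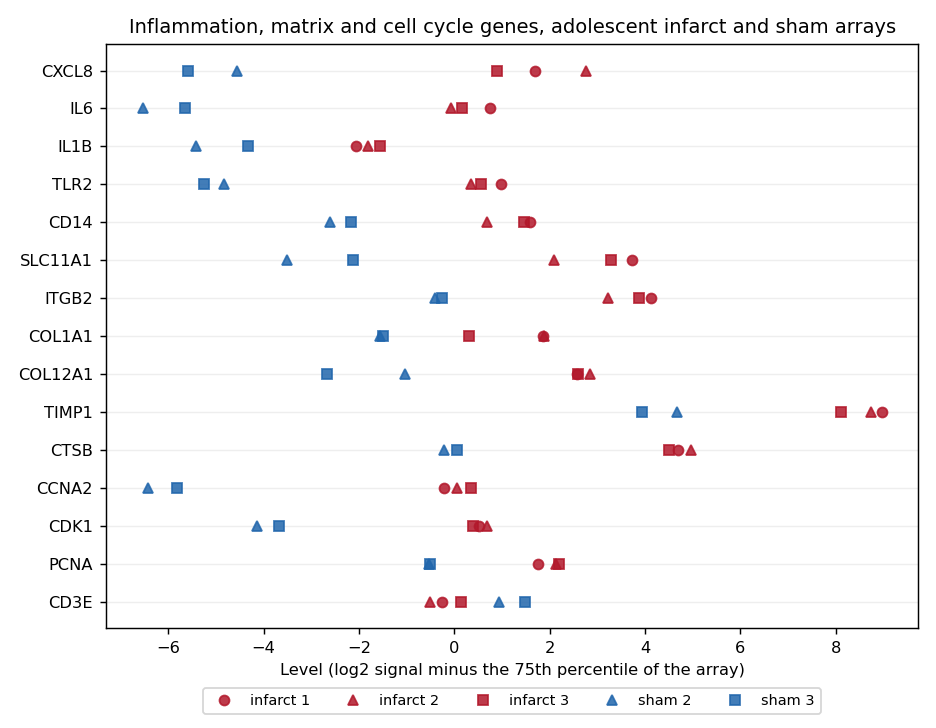
Level of 15 genes of inflammation, matrix and the cell cycle on each of the 5 arrays (log2 signal minus the 75th percentile of the array). In 14 genes all infarct arrays (red) lie above both sham arrays (blue), and in CD3E, a T cell marker, all lie below.

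Vascular genes moved in both directions. Of 22 angiogenesis genes 6 rose and 8 fell (63.6% called, against 58.2% of all named genes). The median of -0.54 was 0.17 within slide 2 and -1.51 within slide 3. The higher calls became 3 without sham 2, 2 without sham 3 and 2 with the common floor, and with normexp 0 were higher and 15 lower (median -2.07). VEGFA, the main growth factor of blood vessels, was at -0.31, -0.27 and -1.65 on the infarct arrays against 3.07 and 2.90 on the shams. All infarct arrays were below both shams, and VEGFA fell by 3.72 (SE 0.61, adjusted p = 5.61e-05). FGF1, a growth factor stored in muscle, fell by 4.34 (SE 0.47, adjusted p = 7.87e-07). The endothelial receptors FLT1, which binds VEGFA, and TEK, which binds angiopoietins, fell by 2.83 (SE 0.48) and 2.66 (SE 0.45). ANGPT2, the angiopoietin of sprouting vessels, was at -2.07, -2.01 and -1.66 against -5.08 and -5.05 and at least 5.25-fold higher (adjusted p = 0.000161), but with normexp it was at -0.46.

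Of 10 endothelial markers 5 were higher and 3 lower, with a median of 0.24 (0.44 and -0.17 within the slides), but with normexp 1 was higher and 4 lower (median -0.86). PECAM1, the junction protein CD31, was at 3.42, 3.19 and 3.36 against 1.93 and 1.48, a rise of 1.62 (SE 0.24, adjusted p = 1.79e-05). NOS3, the endothelial nitric oxide synthase, rose by 1.52 (SE 0.34, adjusted p = 0.00102). KDR, the main signalling receptor for VEGFA, was at -0.75, -0.73 and -2.38 against -0.39 and -0.47, with a difference of -0.86 (SE 0.45, adjusted p = 0.111). CAV1, which forms caveolae, fell by 1.19 (SE 0.27, adjusted p = 0.00116) on its brighter probe, and its other probe did not pass. With brightness in the fit, FLT1 (-3.19) and FGF1 (-2.92) were the 2 angiogenesis genes past the test.

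Of 8 hypoxia genes 3 rose, LDHA and SLC2A1 among them, and 4 fell, with a median of -1.07 (-0.87 and -1.38 within the slides). EPAS1, the hypoxia factor of endothelium and muscle, was at -3.44, -3.61 and -4.91 against -1.65 and -2.23, a fall of 2.05 (SE 0.37, adjusted p = 0.000174), and all 4 of its probes passed as lower. HIF3A, an inhibitory relative, fell by 2.86 (SE 0.55) and ARNT, the shared partner of the hypoxia factors, by 2.12 (SE 0.48). In the deposited values the median of the list was 0.17, over the 7 genes held there. Only 1 gene was still called higher without any 1 array other than infarct 3, and with brightness in the fit 2 were higher and 0 lower.

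Of 13 genes of renin-angiotensin and adrenergic signalling 1 rose and 6 fell, with a median of -0.25 that was 0.07 within slide 2 and -0.82 within slide 3. With normexp 0 of them were higher and 9 lower. AGTR1, the main angiotensin II receptor, was at -3.70, -2.51 and -2.88 against 0.49 and -0.69, a fall of 2.93 (SE 0.39, adjusted p = 7.12e-06). ADRB1, the beta 1 adrenergic receptor of heart muscle, fell by 3.66 (SE 0.46, adjusted p = 3.64e-06) but was well above background on only 1 array of each group. EDNRA, an endothelin receptor, fell by 1.60 (SE 0.29, adjusted p = 0.000225), with infarct 3 missing because its spot was marked as an outlier. NR3C2, the mineralocorticoid receptor, was at -1.70, -0.66 and -1.35 against 2.51 and 2.49, a fall of 3.74 (SE 0.38, adjusted p = 3.62e-07).

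The wider list of circadian and hormone nuclear receptors, which holds PPARA and PPARG as well, had 10 of 14 lower and 2 higher, with a median of -1.77 (-1.45 and -2.95 within the slides). DBP, an output factor of the circadian clock, was at -4.36, -3.97 and -3.87 against 0.09 and -0.23, a fall of 4.0 (SE 0.32, adjusted p = 4.97e-08). The clock factor CLOCK fell by 2.58 (SE 0.46, adjusted p = 0.000138). The glucocorticoid receptor NR3C1 fell by 3.23 (SE 0.51) and the thyroid hormone receptor THRB by 3.13 (SE 0.39), the latter from 0.69 on both sham arrays to between -2.52 and -2.38. The time of day of sampling is not given in the sources used here. With brightness in the fit 3 of the 14, PPARA, NR3C2 and DBP, were called lower.

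In the insulin-like growth factor (IGF) axis 4 of 14 measured genes rose and 6 fell, with a median of -0.85 (-0.71 and -0.56 within the slides). The risers were binding proteins, which hold IGF in tissue. IGFBP4 was at 4.43, 4.2 and 4.84 against 1.86 and 1.91, a rise of 2.61 (SE 0.28, adjusted p = 8.03e-07), and IGFBP2 rose by 3.32 (SE 0.56, adjusted p = 7.81e-05). IGF1 itself was at 0.72, 0.32 and 0.56 against -0.46 and -0.38. All infarct arrays were above both shams, but the difference of 0.96 (SE 0.56, adjusted p = 0.149) did not pass. IGF2 fell by 1.21 (SE 0.33, adjusted p = 0.00483), from 4.25 and 4.02 to 2.03, 3.52 and 3.22. MTOR, the growth kinase, fell by 0.86 (SE 0.17, adjusted p = 0.000267).

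Among lists for cells that a heart sample could also hold, few members were called in the liver, mast cell and erythroid lists. Of the skeletal muscle markers 80.0% were called, against 58.2% of all named genes. None of 9 liver-made plasma proteins and 0 of 3 mast cell markers passed in limma, and 1 of these 12, the mast cell receptor KIT, had an unadjusted p below 0.05 (0.0465). These zero counts depended on the fit: with the slide as a block 2 liver proteins and 1 mast cell marker were lower, and with normexp 4 and 1 were. With only the 5 arrays in the fit 1 liver protein was higher and 3 lower, and 1 mast cell marker was lower. Of 4 erythroid markers EPOR, the erythropoietin receptor, was lower, but its call was lost without infarct 1, infarct 3 or sham 3, and with brightness in the fit it was at 0.89. Of 5 skeletal muscle markers MYH1, TNNC2, MYOD1 and MYOG were lower, MYH1 without being well above background on any of the 5 arrays, and each of the 4 lost its call without sham 3. Of 11 adipocyte markers 3 rose and 3 fell (54.5% called, against 58.2% of all named genes), and with normexp 2 were higher and 6 lower. Of 2 B cell markers CD40, which macrophages and endothelium also carry and which is named after its value was seen, rose by 2.52 (SE 0.26, adjusted p = 3.95e-07).

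Ribosomal and translation genes show how far the scaling reaches. Of 23 measured, 3 rose and 5 fell with a median of -0.25, but in the deposited values 19 of 21 were higher and 1 lower, with a median of 1.21. Quantile normalization gave 13 higher and 2 lower, and the slide as a block 3 higher and 9 lower. RPS2, a protein of the small ribosomal subunit, was at 7.98, 7.80 and 7.72 against 8.48 and 8.74, a fall of 0.78 (SE 0.19, adjusted p = 0.00205), whereas it was at 0.97 in the deposited values and 0.21 after quantile normalization. FTH1, the heavy chain of ferritin, fell by 0.86 (SE 0.25, adjusted p = 0.00612) on its brightest probe but was at 0.84 in the deposited values. EEF1A1, the elongation factor, was higher under both, at 5.08, 5.06 and 5.0 against 3.05 and 3.07 here (1.99, SE 0.24, adjusted p = 2.72e-06). The antioxidant list flipped in the same way, with 1 of 7 higher, 4 lower and a median of -0.86 here and 0.84 in the deposited values, and without sham 3 the lower calls became 2. TXN, thioredoxin, rose under both, by 1.52 here (SE 0.25, adjusted p = 5.57e-05).

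**Figure D4:**
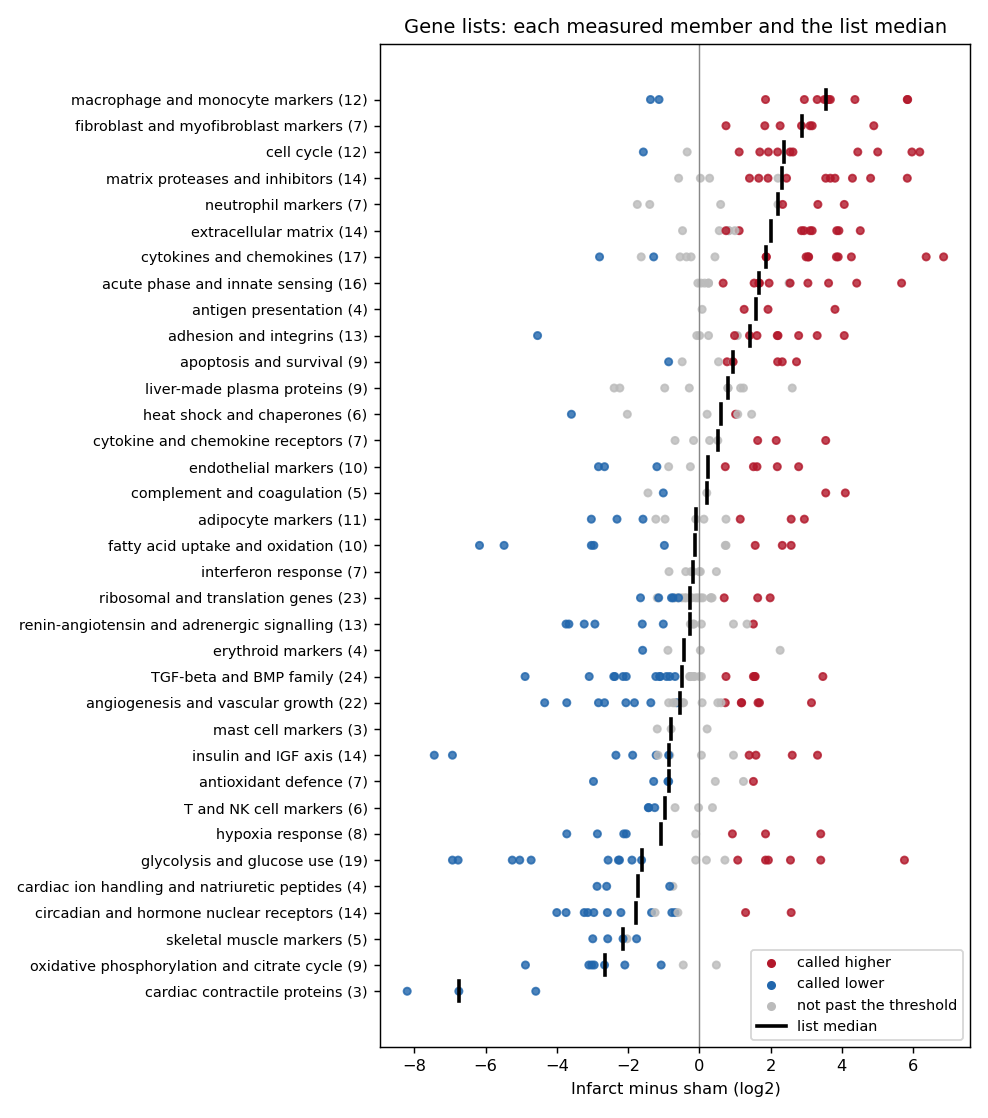
Infarct minus sham (log2) for each measured member of the 35 gene lists with at least 3 measured genes, coloured by its call, with the list median as a black bar and the number measured in brackets. Macrophage and monocyte markers have the highest median here (3.55), though fibroblast markers are higher within slide 2, with normexp and with brightness in the fit and matrix proteases in the deposited values, and contractile proteins have the lowest (-6.75).

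The remote muscle of the adolescent infarcted hearts offers control arrays brighter than the shams, with 75th percentiles of 354, 370 and 304 units. They were still dimmer than every infarct array (751 to 1334 units), so brightness and group cannot be told apart here either. Against it, 7134 probes (57.3%) passed, 3419 higher (27.5%) and 3715 lower (29.8%). The infarct arrays are the same in both comparisons, so only the values side by side are of use. MYH7 fell by 8.20 against sham and by 7.77 against remote muscle, and MB by 6.75 and 6.59. TIMP1 was higher by 4.30 and 2.06. CXCL8 was higher by 6.86 (5.92 with sham 3 at its limit) and 4.82, and CCNA2 by at least 4.37 against sham. CDK1 was higher by 4.45 and 4.66, and COL1A1 by 2.87 and 2.39. Each of these 7 genes passed in the same direction in both comparisons. The list medians were -6.75 and -6.59 for contractile genes, -2.66 and -2.17 for mitochondrial genes, 3.55 and 2.71 for macrophage markers, 2.00 and 1.81 for matrix and 2.38 and 2.12 for the cell cycle. Interferon response genes had a median of -0.18 against sham and 0.80 against remote muscle.

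The infarct effect was also set against that of fetal sheep at 105 days of gestation, with 3 infarct and 3 sham arrays and the same ligation and interval. The fetal shams were bright, with 75th percentiles of 563 to 766 units. The difference between the ages, adolescent effect minus fetal effect in the same limma model, passed for 3093 probes (24.8%), 1281 of them more positive in adolescents (10.3%) and 1812 more negative (14.6%). Among the named genes 93 were more positive and 142 more negative. The counts moved with the arrays and the settings: 2036 probes passed without adolescent sham 3, 73 with normexp and 2 with brightness in the fit.

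Many muscle and energy genes differed between the ages. All 3 contractile genes, 6 of 9 mitochondrial genes, 4 of 10 fatty acid genes and 9 of 19 glucose genes were more negative in adolescents, and 3 glucose genes were more positive. MYH7 lay between 1.15 and 2.93 in the fetal infarcts and between 2.80 and 3.51 in the fetal shams, an effect of -1.09 against -8.20 in adolescents, and the difference was -7.11 (SE 0.98, adjusted p = 0.000178). MB had a fetal effect of -1.60, and the age difference was -5.15 (adjusted p = 0.000741). For PRKAA2 the age difference was -6.27, for ENO3 -5.21 and for SLC2A4 -5.08. The PRKAA2 value rests in part on adolescent infarct levels below background. Proliferation genes were at the other end. CCNA2 was between -0.77 and -0.10 in the fetal infarcts and between -1.13 and -0.34 in the fetal shams, so the fetal groups overlapped and the fetal sham was already at a level near that of both infarcts. Its fetal effect was 0.50, and the fitted age difference was 5.69 (adjusted p = 3.28e-05). Its adolescent effect was at least 4.37 by the limit used here. TYMS and ASPM differed by 4.56 and 4.47 in the same fit, again with both adolescent shams below background and adolescent effects of at least 4.57 and 3.30, and 9 of the 12 cell cycle genes were more positive in adolescents.

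Few inflammation genes passed the test of the age difference. None of the 12 macrophage markers was more positive in adolescents and 1 was more negative, and their medians were 3.55 in adolescents and 3.19 in the fetus. IL6 was higher by 6.23 in the fetus and, since both adolescent shams were below background, by at least 4.58 in adolescents, so no exact age difference is given for it. CXCL8 was higher by 6.86 in adolescents (5.92 with sham 3 at its limit) and 3.47 in the fetus, a difference of 3.39 that did not pass (adjusted p = 0.0849). INHBA rose by 3.47 in adolescents against 0.39 in the fetus, a difference of 3.08 (adjusted p = 0.00575). The fitted age difference of CXCR4 was 3.38 (adjusted p = 0.000499). Both adolescent shams were below background for CXCR4, so this value is not exact, and its adolescent effect was -0.69 with normexp. The 2 highest age differences, SERPINA1 (8.04) and AHSG (7.54), both plasma proteins of the liver, had fetal effects of -5.43 and -8.52, and neither passed in adolescents (adjusted p of 0.166 and 0.591 in limma). AHSG spread from 0.24 to 7.29 over the fetal shams and was not well above background on any adolescent array of the comparison.

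**Figure D5:**
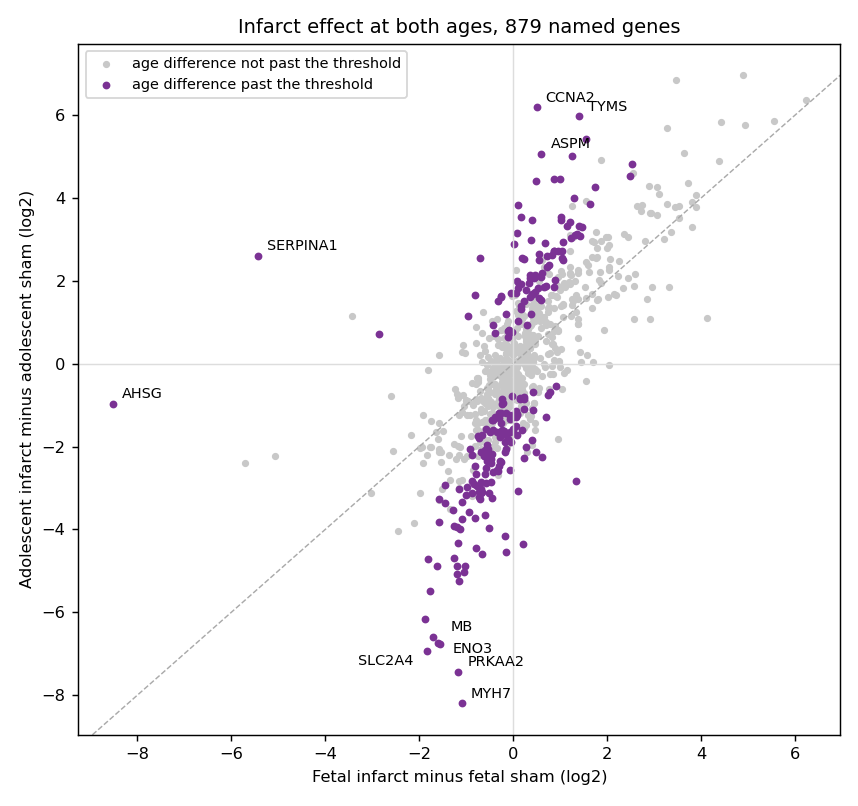
Infarct minus sham (log2) in adolescents against the same in fetal sheep for 879 named genes, with genes whose age difference passed the test in purple, the dashed line where both effects are equal, and the 5 highest and 5 lowest differences labelled. The 5 lowest labelled genes had fetal effects between -1.84 and -1.09 and adolescent effects between -8.20 and -6.75.

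Among 411 named genes with several tested probes, 3 had probes that passed in opposite directions: FTH1, PTGS2 and IL18. IL18, a cytokine of the interleukin-1 family, rose by 3.07 (SE 0.39, adjusted p = 4.5e-06) on its brightest probe, with 2 of 3 probes higher and 1 lower. For these 3 the direction holds for the probe named and not for the gene.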

How the data were processed

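Labelled RNA of 23 sheep heart samples was hybridised to Agilent 1-colour arrays. Per the file headers the authors extracted signals with Feature Extraction 10.1.1.1, and the deposited scanner files hold an intensity per spot, background-subtracted by that software. The authors' deposited value table holds log2 values of 8411 probes, with array medians of 9.27 to 9.31. Its normalization is not given in the sources used here.

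Spots of a probe were averaged, without control and outlier spots, and log2 of the processed signal was taken minus that of the 75th percentile of the array. A probe was tested where at least 2 arrays of 1 group were well above background, which left 12451 of 15008. limma 3.58.1 (R 4.3.3) fitted 1 model over the 8 groups, with Benjamini-Hochberg adjustment within each comparison. A fold written "at least" sets the infarct mean against the higher of the sham signal and the lowest signal well above background on that array.

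Of 15008 probes 1721 were named, for 1057 genes, from the array's own names, accessions and RefSeq's gene table (assembly ARS-UI_Ramb_v3.0), 170 of them by hand from descriptions. A gene stands for its brightest tested probe. The genes named were the 12 highest and 12 lowest, up to 4 or 6 members of each list by moderated t, a set of infarct genes, and the 5 highest and lowest age differences. The members and lists were chosen with earlier results of these data known. Tested on simulated data for adolescent infarct against sham, the model called 31% of 2-fold and 78% of 4-fold changes among 12451 probes. Only 200 probes were changed there, with independent normal noise and no dim arrays. In the data 57.7% of probes passed, so these percentages are not the sensitivity of the comparison itself. Promoter sequences were not analysed here. Results for some genes are not reported here.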

Additional observations from a re-analysis of the deposited data

Results flagged for a closer look

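The infarct effect differed between adolescent and fetal hearts, by limma's test of the difference itself, most for 10 genes among those named. The differences are adolescent minus fetal effect on the log2 scale. They were 8.04 (SE 2.13, adjusted p = 0.0112) for SERPINA1 and 7.54 (SE 1.99, adjusted p = 0.0112) for AHSG. SERPINA1 spread from -4.14 to 3.06 over the 3 fetal shams and AHSG from 0.24 to 7.29, and without fetal sham 1 the differences were 5.94 and 5.57. SERPINA1 was not well above background on either adolescent sham array, nor AHSG on any of the 5 arrays.

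The proliferation genes CCNA2 (5.69), TYMS (4.56) and ASPM (4.47) had more positive effects in adolescents. None of the 3 was well above background on either adolescent sham array, so these values rest on levels below background. With normexp they were 1.06, 0.77 and -0.08.

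The muscle and energy genes MYH7 (-7.11), PRKAA2 (-6.27), ENO3 (-5.21), MB (-5.15) and SLC2A4 (-5.08) had more negative effects in adolescents. With normexp they were -5.97, -3.56, -4.23, -4.66 and -4.11, and with brightness in the fit -5.32, -3.79, -4.86, -3.93 and -3.59. The dim adolescent shams enter every one of the 10 differences, and their part was not tested.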

How the results depend on the processing

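The infarct against sham counts moved most with brightness in the fit, to 1278 probes (533 higher, 745 lower), and with normexp to 1410 higher. Leaving out 1 array in turn gave 5793 to 6807 probes, 2671 to 3115 higher and 3112 to 3835 lower. The age difference gave 73 probes with normexp (11 higher, 62 lower) and 2 with brightness (0 higher, 2 lower, by limma). It ranged from 2036, without adolescent sham 3, to 3166 when 1 array was left out, with 855 to 1300 higher and 1181 to 1866 lower. Against remote muscle there were 3578 probes with normexp (1362 higher, 2216 lower), 3971 with brightness (1890 and 2081), and 6465 to 7167 (3073 to 3434 and 3265 to 3733) without 1 array. Of 178 genes chosen by the naming rule, 82 were higher and 69 lower, against 20 and 28 with brightness and 74 to 82 and 58 to 68 without 1 array. Of the list members 113 were higher and 98 lower, against 71 higher with normexp, 21 and 27 with brightness, and 90 to 112 and 69 to 94 without 1 array. The causes were not tested.

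Genes whose difference changed sign with normexp were ANGPT2 (-0.46), CXCR4 (-0.69), CYBB (-0.73), ICAM1 (-0.07), IL1A (-0.59), IL1B (-0.50), MMP9 (-1.89), NOD2 (-0.68), NOS2 (-0.69), PTGS2 (-0.20), PTX3 (-0.54), RPS2 (0.12), SERPINA1 (-1.20), SLC2A1 (-0.82), TLR4 (-0.51), TLR6 (-0.49) and the age difference of ASPM (-0.08). With brightness EPOR (0.89), FTH1 (0.21), KDR (0.47) and RPS2 (0.05) did. Quantile normalization turned AHSG (0.28), FTH1 (0.29) and RPS2 (0.21), and the deposited values turned AHSG (0.02), FTH1 (0.84) and RPS2 (0.97).

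With the replicate block, where the replicate number is also the slide, 7456 probes passed and 501 of 512 called genes were called in the same direction, with list medians moved by at most 0.52. The deviations of same-numbered arrays had correlations of 0.0138 and -0.0326. The deviations of the sham arrays mirror each other, so each infarct array gave nearly opposite correlations with them (0.0138 and -0.0137, and 0.0326 and -0.0326). These correlations therefore cannot decide whether the numbers mark pairs. The numbers were not taken as pairs. With 1 sham array left, its spread was assumed to be that of the other groups. The age difference was not run on the 5 arrays alone, which hold no fetal sample.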
